A study of Mus musculus with 4 samples.

Results

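Acod1, the gene of the enzyme that makes itaconate, and 8 core enzyme genes of the tricarboxylic acid (TCA) cycle (Cs, Idh2, Idh3a, Ogdh, Sdha, Sdhb, Fh1 and Mdh2) were followed through single-cell RNA sequencing (scRNA-seq) of myeloid-derived suppressor cells (MDSCs) grown in vitro. The 9 genes were chosen by symbol, and each was found once among the 32285 genes listed. Bone marrow of mice aged 6 to 10 weeks was cultured for 4 days in GM-CSF plus IL-6, each at 40 ng/ml, and live CD11b+ cells were sorted and pooled before capture. They form 4 libraries, 1 per group, of which 2 are from WT mice (C57BL/6J): WT + PBS and WT + ISO. ISO is isoproterenol, a synthetic catecholamine given at 10 µM, and PBS is the control. The other 2 libraries, from mice of another genotype without and with ISO, are not compared here. Their cells (2790 and 2039 of those kept) are part of the clusters, of the fixed weights used below and of every level given over all cells. The number of mice behind each culture is not given in the sources used here. The comparison addresses whether ISO changes the expression of the mitochondrial enzymes and of Acod1.

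The TCA cycle oxidizes acetyl-CoA in the mitochondrial matrix. Citrate synthase (Cs) joins acetyl-CoA to oxaloacetate, isocitrate dehydrogenases (Idh2, Idh3a) and the 2-oxoglutarate dehydrogenase complex (Ogdh) carry out the oxidative decarboxylations, and succinate dehydrogenase (Sdha, Sdhb), fumarase (Fh1) and malate dehydrogenase (Mdh2) regenerate oxaloacetate. Acod1 draws from the same pathway: it decarboxylates cis-aconitate, an intermediate between citrate and isocitrate, to itaconate. In myeloid cells Acod1 is known as a gene induced by inflammatory stimuli, and itaconate as an inhibitor of succinate dehydrogenase and an activator of the Nrf2 response. Mature neutrophils are known to hold few mitochondria compared with their precursors.

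In the GRCm38.p6 annotation of RefSeq (the same assembly as mm10, the build named in the submitters' processing notes), Acod1 (ENSMUSG00000022126) lies on chr14:103047012-103056573. Cs is on chr10:128337727-128362482, Idh2 on chr7:80094845-80118608, Idh3a on chr9:54586511-54604662 and Ogdh on chr11:6291597-6359094. Sdha is on chr13:74322255-74350240, Sdhb on chr4:140961271-140979198, Fh1 on chr1:175601378-175625635 and Mdh2 on chr5:135778649-135790386. All 9 are protein-coding and on different chromosomes.

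Catecholamines are known to raise cAMP in many cells, so the 250 bases before the start of each gene were searched on both strands for the cAMP response element (CRE, TGACGTCA), its TGACG part, which each CRE also contains, and for TTCNNNGAA (the GAS element bound by STAT factors), TGACNNNGC (a core of the antioxidant response element) and TTGCNNAA (a C/EBP-type element). Of the members, 8 matched a RefSeq promoter, and Idh3a, which matched none, was not searched. For Idh2, on the minus strand, the window searched (chr7:80115351-80115600) lies inside the gene interval given above. The bases before that interval were not searched for Idh2. The whole CRE was found before Mdh2 and Ogdh, and 1.62% of 27025 promoters of the same length hold it. The TGACG part was found before the same genes (17.9% of promoters) and TTGCNNAA before Sdha (9.55%). TTCNNNGAA (7.18%) and TGACNNNGC (10.1%) were found in none of the windows searched. Acod1 held none of the 5 motifs. The 3 upstream stretches below are the pair with a CRE, whose ratios are given further on, and Acod1 beside them. Capitals mark motif letters. Where a gene has several starts, the start listed first was used, as for Ogdh with 6.
Acod1 (chr14:103046762-103047011, plus strand): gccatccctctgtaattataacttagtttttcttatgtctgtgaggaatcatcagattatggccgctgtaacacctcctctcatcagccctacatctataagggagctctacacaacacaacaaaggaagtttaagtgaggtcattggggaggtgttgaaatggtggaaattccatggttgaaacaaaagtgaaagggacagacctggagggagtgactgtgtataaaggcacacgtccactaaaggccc
Mdh2 (chr5:135778399-135778648, plus strand): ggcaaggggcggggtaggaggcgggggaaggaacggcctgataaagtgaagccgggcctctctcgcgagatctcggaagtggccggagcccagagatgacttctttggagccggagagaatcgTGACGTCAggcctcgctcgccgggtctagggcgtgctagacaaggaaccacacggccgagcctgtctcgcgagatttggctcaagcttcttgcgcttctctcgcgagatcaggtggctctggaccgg
Ogdh (chr11:6291347-6291596, plus strand): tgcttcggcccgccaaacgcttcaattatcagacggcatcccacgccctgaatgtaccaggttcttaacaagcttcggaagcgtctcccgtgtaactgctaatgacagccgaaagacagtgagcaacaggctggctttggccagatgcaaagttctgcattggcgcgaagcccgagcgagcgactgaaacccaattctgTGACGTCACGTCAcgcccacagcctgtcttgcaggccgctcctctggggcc
The CRE began 127 bases before the start of Mdh2 and 51 before that of Ogdh. A match says that the letters are there, and binding was not measured.

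Of 9525 cells, 9303 were kept (a minimum of 200 genes and a maximum of 10% mitochondrial UMIs), between 2039 and 2790 per library. The libraries held 19357824 to 29400468 unique molecular identifiers (UMIs, each standing for a captured transcript), with medians of 7484 to 10252 per cell, and no barcode was shared between libraries (0). Levels are given as CPM, the UMIs of a gene per 1000000 UMIs of the library or cluster. They are not scaled to transcript length, so levels are compared between cells and libraries and not between genes. With 1 library per group no test was possible. The 95% intervals (exact conditional binomial for ratios, exact Poisson for levels, Clopper-Pearson for shares) cover counting error only, not the spread between cultures or mice. Itgam, which encodes CD11b, was detected in 85.2% to 88.4% of cells per library. Nnt, a gene disrupted in C57BL/6J mice, was at 0.840 to 1.09 CPM in all 4 libraries, with Xist at 359 to 389 CPM and Ddx3y, on the Y chromosome, at no more than 0.287 CPM. The treatment field of the labels names isoproterenol for all 4 samples, and the titles and the study's text were followed instead.

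Clustering without the 9 genes and without the pathway genes described here gave 7 clusters. Named from marker genes, these were azurophil-granule neutrophil progenitor-like (1546 cells), specific-granule neutrophil-like (995), mature neutrophil-like (2053), macrophage-like (1654) and conventional dendritic cell-like cells (103). A cluster led by Gpnmb, Atp6v0d2 and Csf1 (1771 cells, median 3074 UMIs per cell) and one led by Matn2 (1181 cells, median 20350) fitted no fixed class and are called Gpnmb-led and Matn2-led. Cells of the Gpnmb-led cluster expressed Itgam (in 70.6% of them), and their summed macrophage markers were at 598 CPM, with 9 of 10 detected and C1qa at 0, against 1103 CPM in macrophage-like cells. Of the marker lists that of mature neutrophils came closest to it, with 8 of 10 genes in at least 10% of cells and a mean log2 ratio of 0.74, short of the 1 needed for a name. Those markers summed to 72958 CPM there, 40975 CPM in macrophage-like and 261310 CPM in mature neutrophil-like cells. They summed to 78079 CPM in Matn2-led, 152903 CPM in progenitor-like and 262553 CPM in specific-granule neutrophil-like cells. The sum thus does not set Gpnmb-led cells apart. The doublet caller marked 0.183% of cells, too few to have worked, so doublets were kept and remain possible.

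Acod1 was a sparse transcript concentrated in 2 clusters. It gave 1326 UMIs in all, found in 773 of 9303 cells, and 503 of those cells had a single UMI. Its level was 65.2 CPM (95% interval 59.4 to 71.3) in Gpnmb-led cells and 36.8 CPM (33.2 to 40.6) in mature neutrophil-like cells. These clusters contributed 35.4% and 29.0% of all Acod1 UMIs while they held 7.09% and 10.3% of all UMIs. Macrophage-like cells followed at 9.09 CPM (7.92 to 10.4) and specific-granule neutrophil-like cells at 8.95 CPM (6.88 to 11.4), and the intervals of these neighbours overlapped. Progenitor-like cells were at 4.09 CPM (3.37 to 4.93) and Matn2-led cells at 3.24 CPM (2.57 to 4.04), again with overlapping intervals. In dendritic cell-like cells 2 UMIs were found, both in 1 of 103 cells.

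Shares of cells with an Acod1 UMI depend on depth, and free RNA in droplets adds UMIs to cells that do not express the gene. An Acod1 UMI was found in 13.8% (12.2 to 15.5) of Gpnmb-led cells and in 12.1% (10.7 to 13.6) of mature neutrophil-like cells, whose medians were 3074 and 4753 UMIs. Progenitor-like cells, where little Acod1 is known, gave 3.04% (2.24 to 4.02) at a median of 15819.5 UMIs. After thinning every cell to 2000 UMIs, the shares were 9.19% and 7.02% against 0.975% in progenitor-like cells and 1.40% in macrophage-like cells. The thinned macrophage-like share was thus close to that of the progenitors. Without thinning it was 8.77% (7.45 to 10.2) at a median of 13966 UMIs, above the share of progenitor-like cells with separate intervals. The clusters are thus not read as equal, and neither level is read as expression above free RNA, which was not measured. Ratios of Acod1 in macrophage-like and progenitor-like cells are given below as measured, and the part of free RNA in them was not tested.

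At a finer clustering with 14 clusters, Acod1 was highest in 405 cells named lipid-laden activated macrophage-like, at 136 CPM (120 to 154). They were led by Gpnmb, Atp6v0d2, Ccl4, Ear6 and Ccl3, and Ear6 is on the list of eosinophil markers. In that cluster 22.7% of cells had an Acod1 UMI, and 18.0% of those thinned to 2000 UMIs. Of the markers behind its name, 6 of 8 were in at least 10% of cells, with a mean log2 ratio of 1.17. In the coarser set these markers summed to 4349 CPM in Gpnmb-led, 8059 CPM in macrophage-like and 7637 CPM in dendritic cell-like cells. A mature neutrophil-like cluster of 961 cells led by Retnlg, a gene of late neutrophils, followed at 63.7 CPM, and 1263 cells led by Acta2 and Csf1 were at 50.3 CPM. The other clusters of this set were at 19.8 CPM or below.

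The 8 TCA cycle enzymes were distributed differently, though not in the inverse order of Acod1. Specific-granule neutrophil-like cells were low in both, and Gpnmb-led cells, highest in Acod1, lay between the extremes for the summed enzymes. With the 4 libraries pooled, each of the 8 was lowest in mature neutrophil-like cells among the 6 large clusters. In the same pool 7 were highest in Matn2-led cells, Ogdh being highest in macrophage-like cells. Single libraries had the same lowest cluster in 2 of 4 for Sdha, 3 for Ogdh, Sdhb and Fh1, and 4 for the others. They had the same highest cluster in 2 of 4 for Ogdh, 3 for Sdhb and 4 for the others. In WT + PBS, Sdha and Ogdh were lowest in specific-granule neutrophil-like cells. In WT + ISO, Ogdh was highest in Matn2-led cells. Summed over the 8 genes, the level was 314 CPM in mature neutrophil-like cells, 377 in specific-granule neutrophil-like, 516 in Gpnmb-led, 700 in macrophage-like, 771 in progenitor-like and 1001 in Matn2-led cells. The order of the lowest and the highest cluster for this sum was the same in each of the 4 libraries. In UMIs per cell the contrast was wider, since mature neutrophil-like cells held fewer UMIs: 1.60 UMIs of the 8 genes per cell there and 20.9 in Matn2-led cells. As a description over 26 cluster-by-library units, which share libraries and depth, the level of Acod1 had Pearson's r between -0.59 (Fh1) and -0.10 (Ogdh) with the enzymes. Among the enzymes themselves r lay between 0.44 and 0.95, and every value below 0.75 involved Ogdh.

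The enzymes fell into 2 sets by how far they ranged between clusters. Idh3a, the catalytic subunit of the NAD-dependent isocitrate dehydrogenase, ranged 22.9-fold, from 4.31 CPM in mature neutrophil-like to 98.7 CPM in Matn2-led cells. Fh1 ranged 19.6-fold (3.45 to 67.5 CPM) and Idh2, the NADP-dependent mitochondrial isocitrate dehydrogenase, 12.7-fold (10.5 to 134 CPM). In contrast, Cs ranged 3.03-fold (32.8 to 99.5 CPM), Mdh2 2.69-fold (112 to 300.4 CPM), Sdha 2.58-fold (33.6 to 86.6 CPM), Sdhb 2.17-fold (65.1 to 141 CPM) and Ogdh 1.54-fold (52.3 to 80.6 CPM). Over 7669 genes with at least 1000 UMIs the median range was 2.86-fold and 13.7% ranged more than 10-fold. The contrast was also seen at equal depth. Thinned to 2000 UMIs, 0.676% of mature neutrophil-like and 14.5% of Matn2-led cells had an Idh3a UMI, while the shares for Ogdh were 9.46% and 13.01%.

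**Figure D1:**
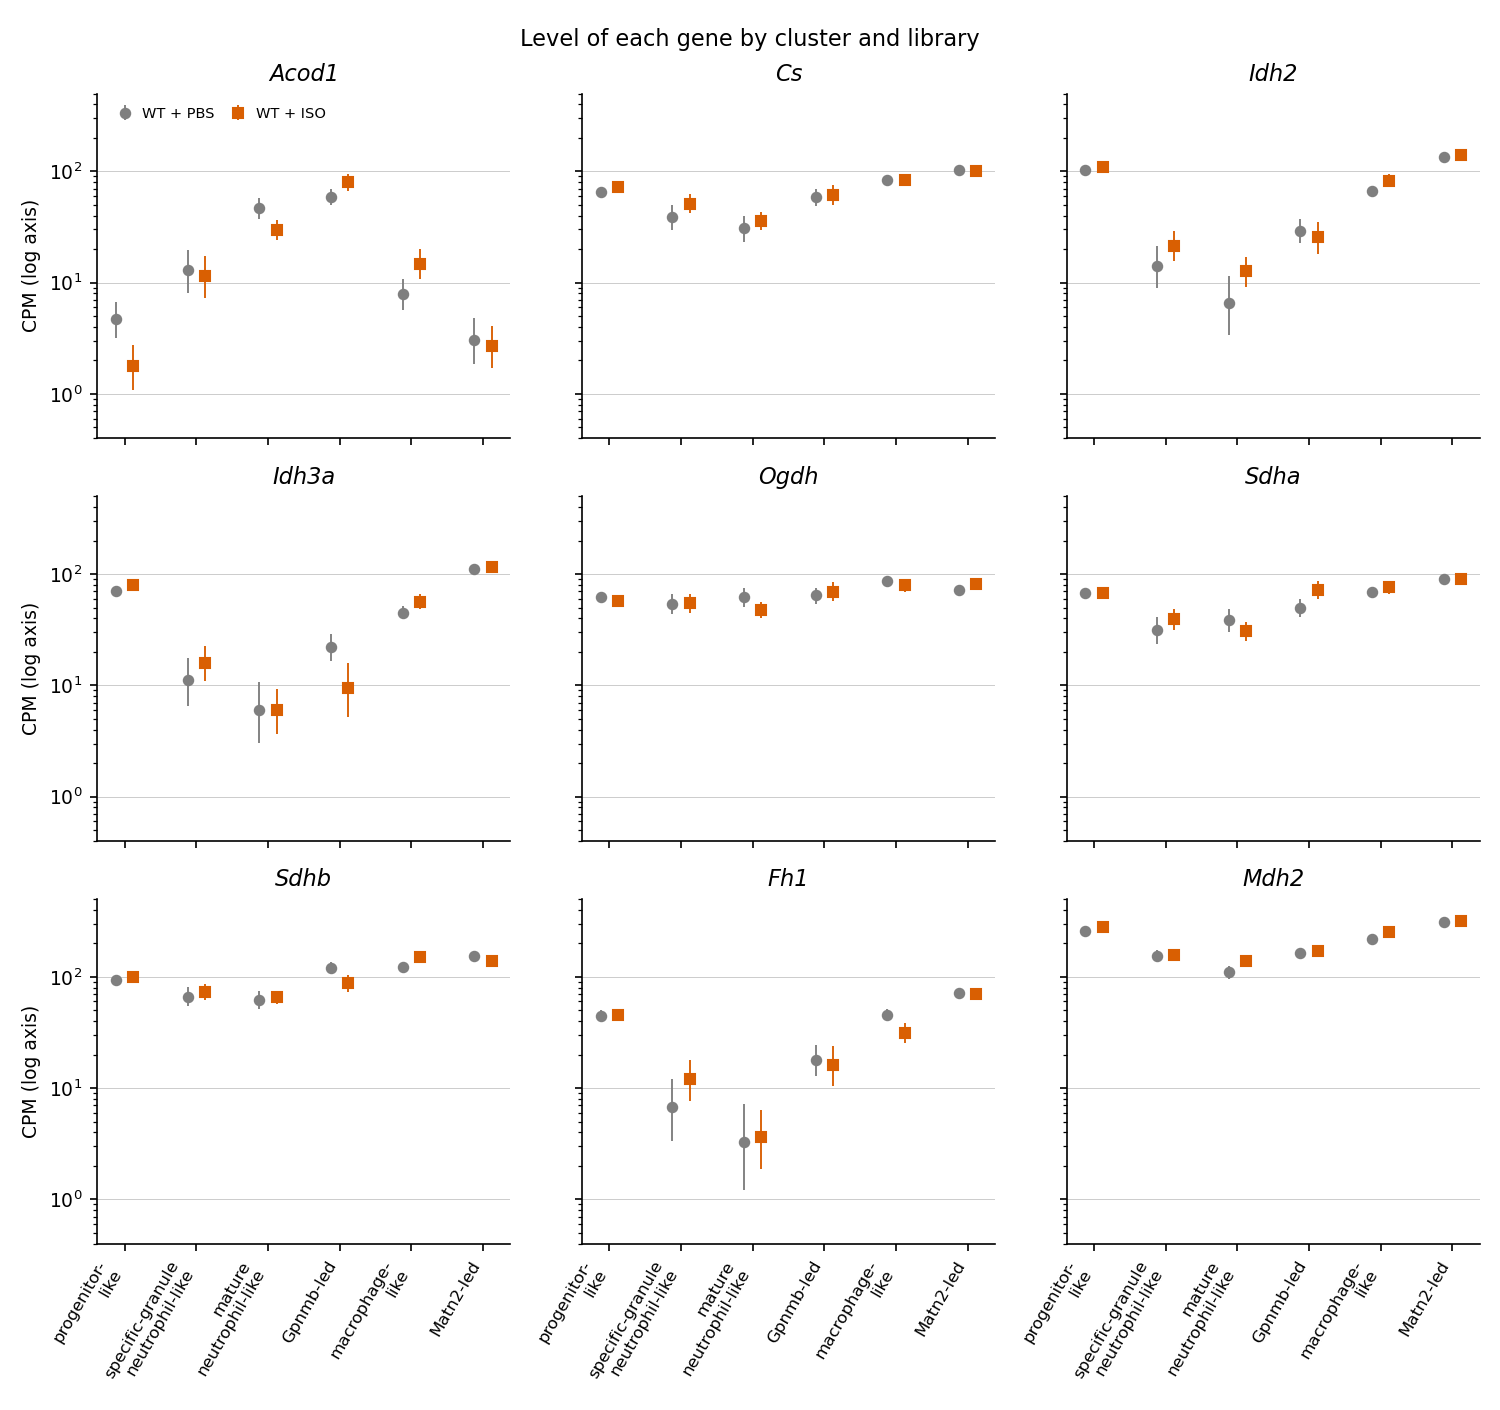
Level of each gene (CPM, log axis) in the 6 large clusters (horizontal axis). Each symbol is 1 of the WT libraries, and bars are exact Poisson 95% intervals, which cover counting error only. Acod1 peaks in Gpnmb-led and mature neutrophil-like cells (65.2 and 36.8 CPM over all 4 libraries), where Idh3a, Fh1 and Idh2 are low, while Ogdh varies 1.54-fold between clusters.

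The other subunits and enzymes of the cycle, 18 genes with the members, mostly showed the same contrast. Idh3g, a regulatory subunit of the Idh3a complex, was at 20.8 CPM in mature neutrophil-like and 95.1 CPM in Matn2-led cells, and Idh3b at 13.7 and 60.8 CPM. Suclg2, a subunit of succinyl-CoA synthetase, was at 4.02 and 32.1 CPM in mature neutrophil-like and Matn2-led cells. Dlst, the second component of the 2-oxoglutarate dehydrogenase complex, ranged even less than Ogdh, between 42.7 CPM in specific-granule neutrophil-like and 58.8 CPM in macrophage-like cells.

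Genes with a pattern like that of Acod1 were found by the correlation of log2(CPM + 1) over the 26 units, among 7716 genes with at least 1000 UMIs. Among the 10 closest were Xylt1 (r = 0.94), Tmem164, Ccl3 (r = 0.93), Ubtd1, Dusp6, Card19, Pde7b, Slpi and Gm28981 (r = 0.91). Ccl3 encodes a chemokine of activated myeloid cells and was one of the leading genes of the Gpnmb-led cluster, with 835 CPM there, 279 CPM in mature neutrophil-like and 72.0 CPM in progenitor-like cells. Of other inflammatory genes, Cd14 had r = 0.88, Clec4e 0.83, Tnf 0.81 and Il1b 0.51, and Saa3, highest in macrophage-like cells at 476 CPM, had r = -0.12. Nfkbia had r = 0.36, Irf1 0.25 and Il6, the lowest of the 18 inflammatory genes described below, -0.47.

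Acod1 was measured at 13.7 CPM (12.3 to 15.3) in WT + PBS and at 11.2 CPM (9.98 to 12.4) in WT + ISO, from 335 and 328 UMIs. The intervals of the levels just overlapped, with WT + ISO the lower. The share of cells with an Acod1 UMI was 8.37% without ISO and 9.01% with it, and 3.70% and 3.79% after thinning to 2000 UMIs. The order of the shares was thus opposite to that of the CPM, and no order is read from them. The 5 cells with most Acod1 UMIs held 9.85% and 9.45% of the gene's UMIs.

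The 8 enzymes summed were at 745 CPM in WT + PBS and 780 in WT + ISO. Idh3a gave 60.8 and 70.6 CPM in the same order, Idh2 81.9 and 92.99, and Mdh2 234 and 255. These 3 were higher with ISO. Fh1 gave 43.9 and 42.4 CPM, Sdhb 113 and 109.7, Ogdh 69.4 and 65.6, Sdha 67.6 and 68.5, and Cs 74.5 and 75.6. For these 5 the libraries lay close to each other.

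The libraries differed in make-up, which bears on each of these values, since a CPM over a whole library cannot tell apart fewer cells of a type and less RNA of the gene per cell. Macrophage-like cells were 15.2% of cells without ISO and 7.73% with ISO, and Gpnmb-led cells 25.8% and 14.6%. Progenitor-like cells were 16.3% and 26.0%, and mature neutrophil-like cells 17.8% and 24.1%. With ISO the library therefore held more progenitor-like and mature neutrophil-like cells and fewer macrophage-like and Gpnmb-led cells. The summed macrophage markers (10 of 10 detected in each library) were at 364 and 209 CPM. The part of make-up in the ratios was measured by giving each ratio a second time with every cluster at 1 fixed weight, the mean share of UMIs each has over the 4 libraries.

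**Figure D2:**
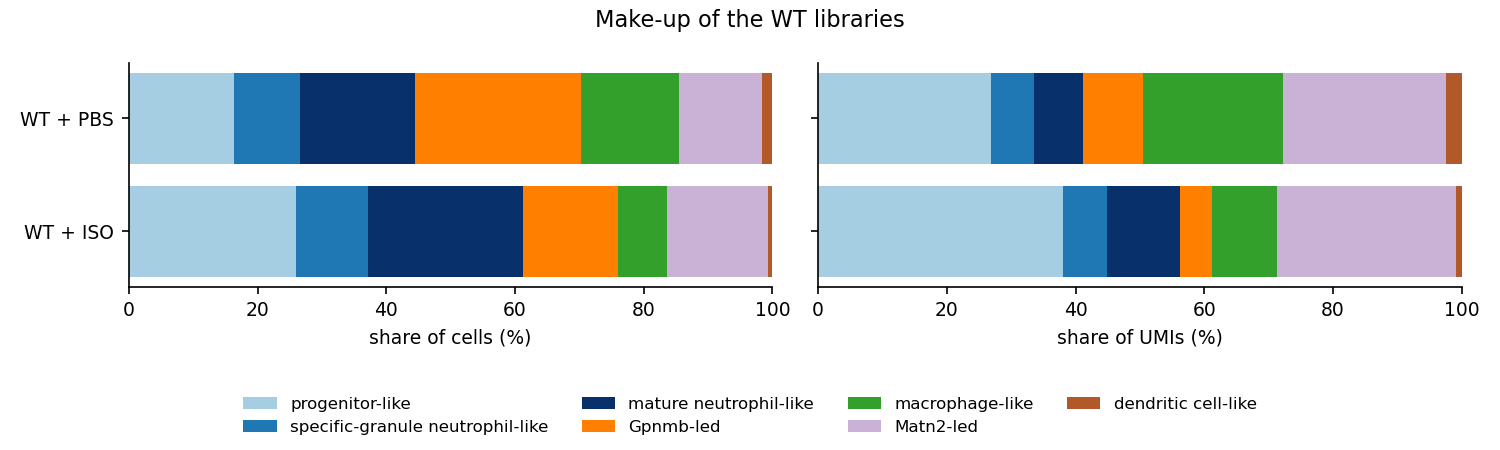
Share of cells (left) and of UMIs (right) in percent that each cluster takes in WT + PBS and WT + ISO, as stacked bars that sum to 100. Macrophage-like cells take 21.7% of UMIs without ISO and 10.1% with ISO, and Gpnmb-led cells 9.44% and 5.04%.

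In WT cells, ISO went with less Acod1 in the whole library, and at fixed make-up the interval held 0. The log2 ratio of WT + ISO over WT + PBS was -0.30 (-0.52 to -0.08), and at fixed weights 0.05 (-0.18 to 0.28). Of the difference of -2.58 CPM, -2.50 came from the clusters' shares and -0.07 (-2.13 to 1.99) from levels within clusters. The largest piece was the smaller Gpnmb-led cluster, with the smaller share of UMIs shown in the plot of shares (-3.05 CPM), and the macrophage-like cluster added -1.32 CPM. The larger share of mature neutrophil-like cells went the other way (1.47 CPM), as did that of progenitor-like cells (0.36 CPM). The near absence of a within-cluster part was a sum of opposite pieces. In Gpnmb-led cells Acod1 was higher with ISO (59.1 and 79.7 CPM, log2 ratio 0.43, 0.06 to 0.80), as in macrophage-like cells (7.95 and 14.8 CPM, 0.90, 0.26 to 1.55). In mature neutrophil-like cells it was lower (47.0 and 29.7 CPM, -0.66, -1.09 to -0.23), as in progenitor-like cells (4.72 and 1.79 CPM, -1.40, -2.29 to -0.54). Depth differed in mature neutrophil-like cells, with medians of 4409 and 5851 UMIs. Acod1 UMIs per cell were 0.219 and 0.182 there, closer to each other than the CPM. Shares of cells with an Acod1 UMI were 12.4% and 19.6% in Gpnmb-led and 7.42% and 15.4% in macrophage-like cells. In mature neutrophil-like cells they were 13.5% (10.3 to 17.3) and 11.7% (9.16 to 14.7). In progenitor-like cells they were 3.33% (1.73 to 5.75) and 2.55% (1.43 to 4.17), from 12 and 15 cells. Intervals of these shares overlapped in all but Gpnmb-led cells. Leaving out, from each library's share of a cluster, the cell with most Acod1 UMIs gave 0.43, 0.99, -0.63 and -1.27 for these 4 clusters. The finer clusters, which need not lie within the coarser ones, did not all follow. Cells led by Acta2, also a leading gene of the Gpnmb-led cluster, were at 37.6 and 85.6 CPM. The lipid-laden activated macrophage-like cells, led by Gpnmb, were at 131 (105 to 162) and 105.5 CPM (77.3 to 141). The finer mature neutrophil-like cluster was at 78.8 (60.5 to 101) and 60.4 CPM (47.1 to 76.1), with overlapping intervals. Finer progenitor-like cells were at 1.43 and 0.972 CPM, from 7 and 8 UMIs, and finer macrophage-like cells at 9.48 and 18.7 CPM.

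**Figure D3:**
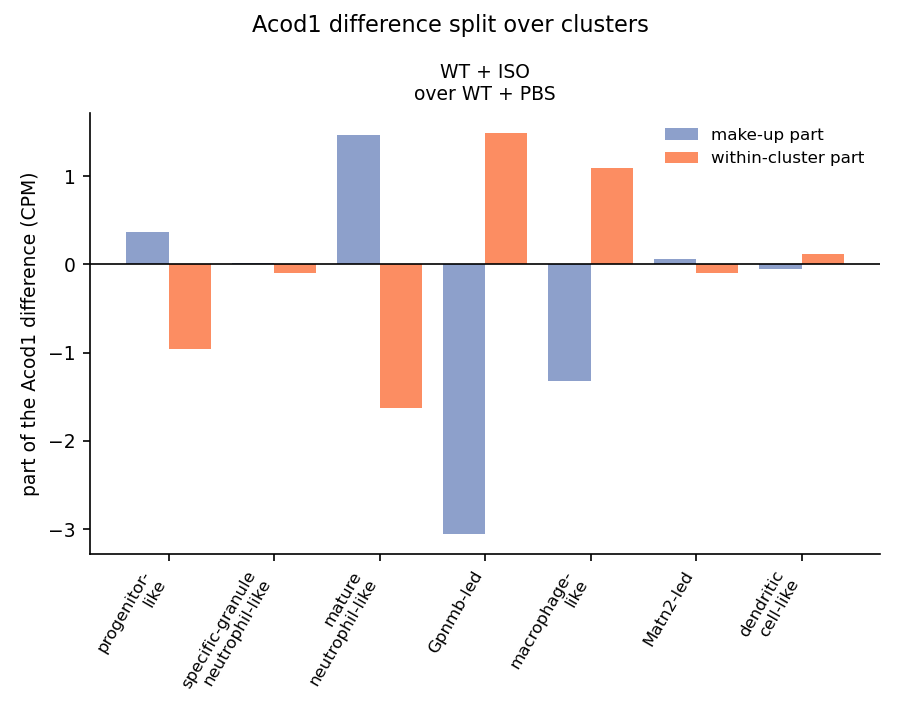
Difference in Acod1 level (CPM, vertical axis) between WT + ISO and WT + PBS, split for each cluster into the part from its share of UMIs (blue) and the part from its Acod1 level (orange). The parts from shares sum to -2.50 CPM of -2.58, and the parts within clusters to -0.07 CPM.

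Among the 8 enzymes, none passed a log2 ratio of 0.25 in either direction with ISO. Of the 8, 0 were higher and 0 lower, where 10.7% of 11852 genes were higher and 19.8% lower. That background holds every gene with at least 50 UMIs over both libraries, while Fh1, the enzyme with fewest, had 1071 and 1248. Genes of few UMIs pass 0.25 more easily by counting error, so the count is not read as a trait of the enzymes. Acod1 passed 0.25 as lower. The median log2 ratio over all genes was -0.02. Summed, the enzymes were slightly higher with ISO, with a log2 ratio of 0.07 (0.04 to 0.09) and the same 0.07 at fixed weights. The sum gives most weight to Mdh2, which made up 21.1 of its difference of 35.1 CPM. Gene by gene, 5 were above 0 and 3 below, with a median of 0.02. At fixed weights the median of the 8 was 0.05, where that over all genes was 0.02. In WT cells 3 genes had intervals above 0: Idh3a at 0.22 (0.12 to 0.31), Idh2 at 0.18 (0.10 to 0.27) and Mdh2 at 0.12 (0.07 to 0.17). They kept intervals above 0 at fixed weights (0.14, 0.12 and 0.11). Ogdh, beside Mdh2 the other gene with a CRE in the windows searched, had -0.08 (-0.18 to 0.01). No window of Idh3a was searched, and that of Idh2 lay inside the gene.

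Within clusters, the ISO differences of the enzymes were mostly small for the sum and larger for single genes. With 8 genes in 6 clusters, some intervals can leave out 0 by counting error alone. Not all that did are named below. Over the 6 large clusters the summed enzymes were higher in 5, with intervals above 0 in macrophage-like (0.14, 0.07 to 0.22), progenitor-like (0.07, 0.02 to 0.12) and specific-granule neutrophil-like cells (0.17, 0.02 to 0.32). Idh3a was lower with ISO in Gpnmb-led cells, at 22.2 and 9.45 CPM (51 and 14 UMIs, -1.23, -2.20 to -0.35), where Acod1 was higher. In macrophage-like cells Idh3a was higher, at 45.0 and 56.3 CPM (0.32, 0.03 to 0.61), as was Acod1. Fh1 was lower with ISO in macrophage-like WT cells (45.2 and 31.4 CPM, -0.53, -0.89 to -0.18), the one large cluster where its interval left out 0. The subunits of succinate dehydrogenase parted in Gpnmb-led WT cells, with Sdha at 49.5 and 72.2 CPM (0.54, 0.15 to 0.94) and Sdhb at 120 and 87.1 CPM (-0.46, -0.77 to -0.15). In macrophage-like WT cells Sdhb (0.32, 0.14 to 0.50), Idh2 (0.31, 0.07 to 0.55) and Mdh2 (0.20, 0.07 to 0.34) were higher with ISO.

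**Figure D4:**
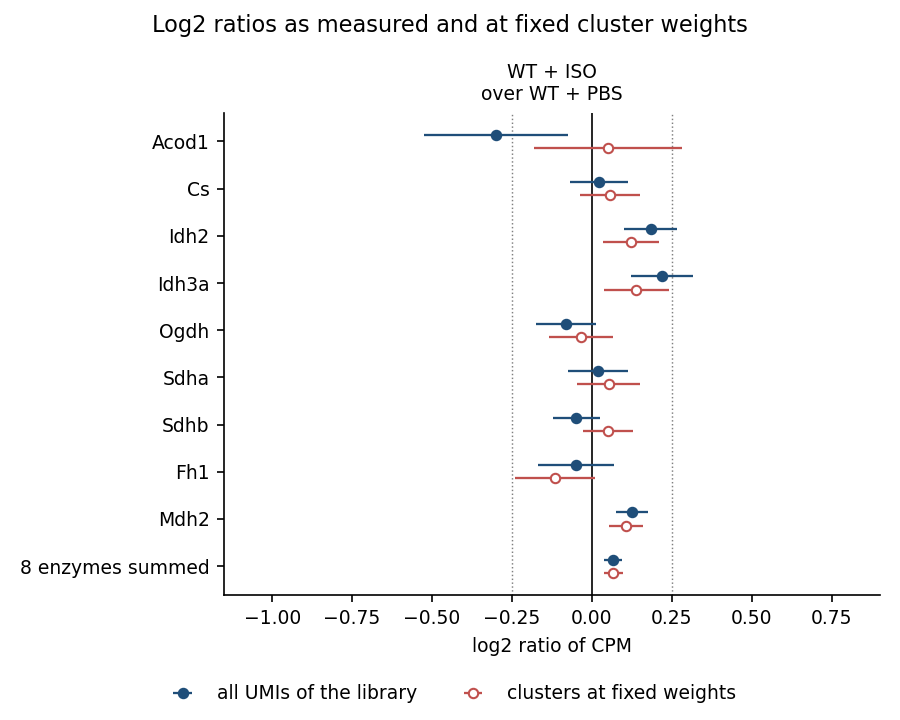
Log2 ratio of CPM (horizontal axis) of WT + ISO over WT + PBS for each gene and for the 8 enzymes summed. Filled points use all UMIs of a library, open points hold clusters at fixed weights, bars are 95% intervals for counting error only, and dotted lines mark 0.25 in both directions. Acod1 is at -0.30 as measured and 0.05 at fixed weights, and Idh3a at 0.22 and 0.14.

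**Figure D5:**
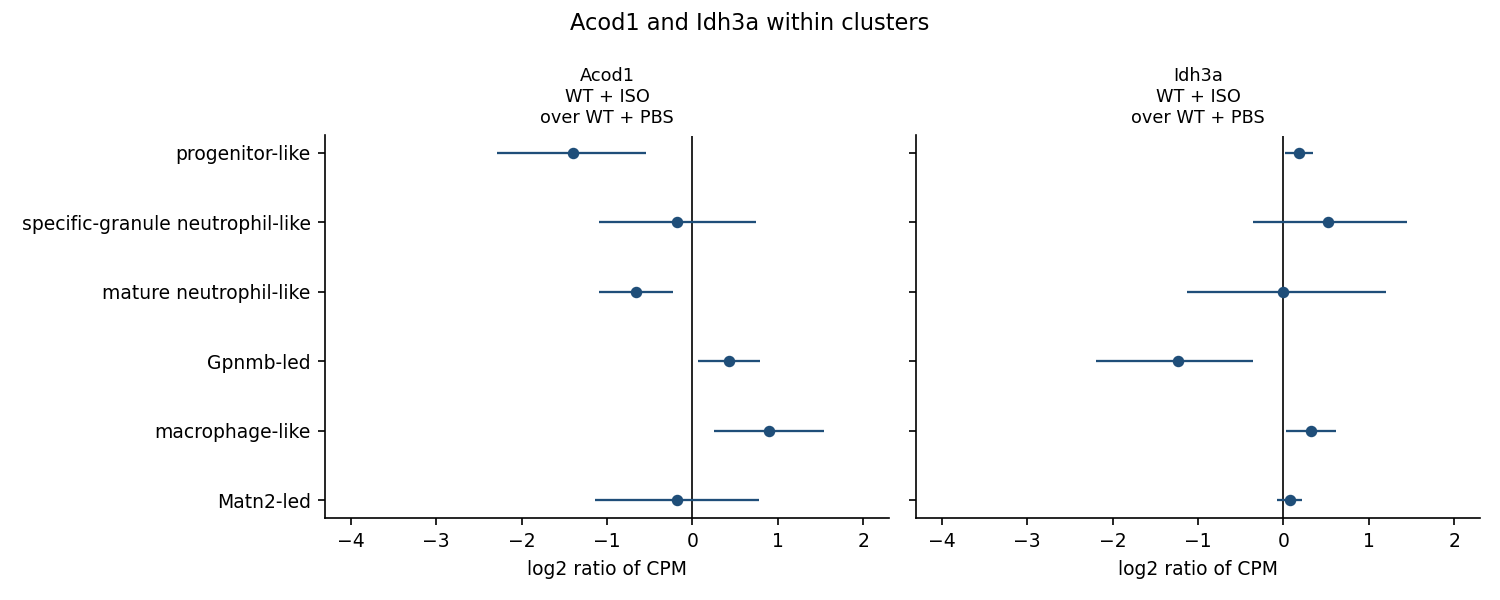
Log2 ratio of CPM (horizontal axis) of WT + ISO over WT + PBS within each of the 6 large clusters for Acod1 (left) and Idh3a (right), with exact conditional binomial 95% intervals. With ISO, Acod1 is higher and Idh3a lower in Gpnmb-led cells (0.43 and -1.23).

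Over the list of all 18 cycle genes the count was the same as over the enzymes among the members. None passed 0.25 with ISO in either direction, and the median was 0.02. Of 11852 genes, 10.7% were higher and 19.8% lower. Genes of few UMIs pass 0.25 more easily by counting error, so the count is not read as a trait of the list.

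Of 8 genes for the precursor, carriers and breakdown of itaconate, 1 was lower and 1 higher past 0.25 with ISO in WT cells. Over all genes 19.8% were lower and 10.7% higher, so the count does not set the list apart. The lower gene was Clybl, of itaconate breakdown (40.2 and 21.5 CPM, -0.90, -1.05 to -0.76, and -0.68 at fixed weights). Abcg2, a transporter that can carry itaconate out of cells, was higher at 0.39 (-0.22 to 1.02) from 38 and 60 UMIs. Clybl was highest in macrophage-like cells (85.4 CPM against 20.3 in progenitor-like cells), whose share was lower with ISO too. The part of the macrophage-like share was not tested beyond the fixed weights.

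Among genes that bring carbon into the cycle (14 of 16 counted), 1 was higher and 2 lower with ISO in WT cells, against 10.7% and 19.8% of all genes, so the count does not set the list apart. These were Mpc2, a subunit of the mitochondrial pyruvate carrier, at 0.29 (0.24 to 0.34), Pdk1, a kinase that inactivates pyruvate dehydrogenase, at -0.55 (-0.71 to -0.39), and Pcx, pyruvate carboxylase, at -0.65 (-1.21 to -0.09). At fixed weights these were 0.20, -0.30 and -0.46.

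Of 6 cytosolic counterparts, Idh1 and Me1 were higher and 0 lower with ISO in WT cells, where 10.7% of all genes were higher and 19.8% lower. With 6 genes the count is not read as a trait of the list. Idh1 was at 41.5 and 51.2 CPM (0.30, 0.19 to 0.42, and 0.31 at fixed weights), and Me1, the cytosolic malic enzyme, at 0.697 and 2.31 CPM from 17 and 68 UMIs (1.73, 0.95 to 2.59).

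Acod1 was set beside 18 inflammatory activation genes, a group it is known to be induced with. In WT cells with ISO 11 of the 17 counted were lower and 0 higher (median -0.35), where 19.8% of all genes were lower and 10.7% higher. Il1b was at 137 and 47.1 CPM (-1.54, -1.64 to -1.45), Ccl4 at 130 and 59.7 CPM (-1.13, -1.21 to -1.04) and Cd14 at 99.4 and 66.8 CPM (-0.57, -0.66 to -0.49). The lower level of the group was mostly not seen at fixed make-up. At fixed weights 3 of the 17 were lower and 2 higher (median 0.05), where 10.7% of all genes were lower and 11.8% higher, with a median of 0.02. Those still lower were Il1b (-0.85), Ccl4 (-0.42) and Saa3 (-0.33, from -0.79 over the whole library). Those higher were Il1a (0.90, from -0.30, on 44 and 43 UMIs) and Sod2 (0.32, from 0.09). Of the 11 genes, Ptgs2, Il1rn and Cd14 were at -0.19, -0.20 and -0.15, and Ccl3, Nos2, Tlr2 and Cxcl2 at 0.00, 0.05, 0.06 and 0.14. Acod1 stood beside them at -0.30 over the whole library and 0.05 at fixed weights.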

How the data were processed

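Cells were tagged and pooled before 10x Genomics capture, and whether the 4 libraries shared a capture is not stated. The authors deposited raw UMI counts per gene and cell barcode for each library, without normalization. Per the file headers these came from Cell Ranger 7.0.0, while the submitters' processing notes name 6.0.0 and build mm10. How barcodes were assigned to samples is not given in the sources used here. Groups were taken from the sample titles. The 9 members and all gene lists were chosen with earlier results of these data known.

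Cells with fewer than 200 genes or more than 10% mitochondrial UMIs were left out, as were the 12 multiplexing tags. Each cell was brought to 10000 counts, log values were taken, and cells of all 4 libraries were clustered together with scanpy 1.11.5 and leidenalg 0.10.2 (2000 variable genes without the members and list genes, 30 principal components, 15 neighbours, resolution 0.4, and 1.0 for the finer set, seed 0). A cluster was named where at least 3 markers of a class were in 10% of its cells, their mean log2 ratio to other cells was at least 1, and 1 or more was among its 10 leading genes. For equal depth, cells were thinned to 2000 UMIs, and shallower cells were left out.

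CPM rest on all UMIs of a library or cluster. Ratios were taken for genes with at least 50 UMIs over both libraries, and a log2 ratio beyond 0.25 in either direction was counted. No test was run, since each group is 1 library. The split of an Acod1 difference gives each cluster's change in UMI share times its mean level, and its change in level times its mean share. Intervals came from scipy 1.17.1 (at fixed weights a normal approximation) and cover counting error only. Those of ratios as measured were checked on simulated counts, drawn without spread between cells, and the other intervals were not checked. Members were always named, list genes where they passed the threshold or were the highest or lowest of their list, the 10 genes most correlated with Acod1, and Nnt, Xist and Ddx3y. Some genes, and the comparisons of the other 2 libraries, are not reported here. Other list genes with values were chosen after these were seen. Alternatives were median-of-ratios scaling, totals without the 20 most abundant genes, equal weight per cell, other cell filters, called doublets left out, fixed weights, 30 neighbours and leaving out the cluster of highest Acod1. Leaving out 5 cells per library, and list counts at fixed weights, were chosen after seeing the data. Promoters and positions came from RefSeq tables of GRCm38.p6.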

Additional observations from a re-analysis of the deposited data

How the results depend on the processing

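No paired analysis was possible because a group here is 1 library, and no replicate could be left out. Of 23 recomputed values of Acod1 and of the 8 enzymes summed, 19 moved by less than their counting interval. Acod1 in WT + ISO over WT + PBS turned from -0.30 to 0.050 at fixed weights with 7 clusters and to 0.13 with 14. Fixed weights remove the difference in shares by construction. The enzyme sum went from 0.07 to 0.11 with median-of-ratios scaling and to 0.11 without the 20 most abundant genes, and the cause was not tested. With 14 clusters the parts of the Acod1 difference from shares and from levels within clusters were -3.45 and 0.87 CPM, and with 30 neighbours -2.28 and -0.29 CPM. Of 17 inflammatory genes 11 were lower and 0 higher as measured, and 3 lower and 2 higher at fixed weights. Over single enzymes 67 of 72 values moved by less than their interval, 69 kept their sign, and the largest shift was 0.11. Without the 5 cells of most Acod1 UMIs in each library, its ratio was -0.29. With 335 and 328 UMIs of Acod1 in the WT libraries, its level within a cluster and library rested on 19 to 136 UMIs in the large clusters, and shares of cells are not resolved beyond their intervals.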
